A study of Mus musculus with 2 samples.

Results

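Galectins are proteins that bind sugar chains ending in galactose, and the genes described here are 4 of them, Lgals1, Lgals3, Lgals8 and Lgals9, together with Lgals3bp, which encodes a secreted glycoprotein that galectins bind. The 5 genes were taken by symbol from the 22480 genes listed in both count tables, and were chosen by their levels and shares of positive cells across classes in earlier results of these data, so their values are given as a description and no test is made of them. Expression was measured by droplet sequencing of single cells, which counts unique molecular identifiers (UMIs, each marking an RNA molecule caught at its 3′ end), in mouse spinal cord. There were 2 libraries: sham, and 3 dpi (3 days post injury). Each held cells of 5 male and 5 female C57BL/6 mice, 8 weeks old and of no stated genotype, from an 8 mm length of cord around the injury, and the kind of injury and the sham procedure are not given in the sources used here. With 1 pooled library per group there was no replicate, so no p-value is given, and library and injury cannot be told apart.

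Galectin-1 and galectin-3 are made in the cytoplasm and also leave the cell, where they cross-link glycoproteins such as integrins and CD44. Galectin-1 pairs up with itself, and galectin-3 joins its sugar-binding domain to a flexible tail through which it assembles into larger complexes. Galectin-8 and galectin-9 carry a pair of different sugar-binding domains on 1 chain. Galectin-3, galectin-8 and galectin-9 also bind sugars exposed on damaged lysosomes and endosomes. In injured nervous tissue galectin-3 is best known from phagocytes that clear myelin.

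After filters the sham library held 9306 cells with a median of 5250 UMIs, and the 3 dpi library 12108 cells with a median of 8440 UMIs; 39 barcode sequences occurred in both libraries. Cells were clustered without the 5 genes and named from markers, and names end in "-like" because they were rebuilt. Microglia-like cells numbered 2177 in sham and 2523 at 3 dpi, oligodendrocyte-like cells 4403 and 1807, oligodendrocyte precursor-like cells 279 and 851, and endothelial-like cells 1547 and 398. These 4 classes had the 50 cells required in both libraries. Pericyte or smooth muscle-like cells had them in sham only (517 cells). At 3 dpi only, monocyte/macrophage-like (3495), neutrophil-like (1459), fibroblast-like (684), B-like (86), T or NK-like (77), border-associated macrophage-like (75) and dendritic-like cells (63) had them. Astrocyte-like (11 and 29), ependymal-like (24 and 1) and neuron-like cells (21 and 13) were too few to describe, and 223 sham and 537 3 dpi cells stayed unnamed. Levels are counts per 1000000 UMIs of a class in a library (CPM), with 95% intervals in brackets that cover counting error only.

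Over all kept cells Lgals1 stood at 14.7 CPM in sham and 1837 CPM at 3 dpi, and Lgals3 at 6.41 and 2082 CPM. Lgals8 stood at 39.4 and 32.9 CPM, Lgals9 at 33.9 and 82.9 CPM, and Lgals3bp at 27.1 and 55.4 CPM. These totals mix the classes, whose shares differed between the libraries. Within the classes the 5 genes formed 3 patterns. Lgals1 and Lgals3 were nearly absent from the sham glia and endothelium and were high at 3 dpi, in different classes. Lgals8 was low in every class, between 11.7 and 57.7 CPM. Lgals9 and Lgals3bp were highest in endothelial-like and microglia-like cells of sham and, at 3 dpi, both stood above 50 CPM in both macrophage classes and in microglia-like, endothelial-like and T or NK-like cells. The T or NK-like values rest on 10 UMIs of each gene. The highest class of Lgals3bp at 3 dpi was dendritic-like, where Lgals9 was lower, at 37.9 CPM.

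**Figure D1:**
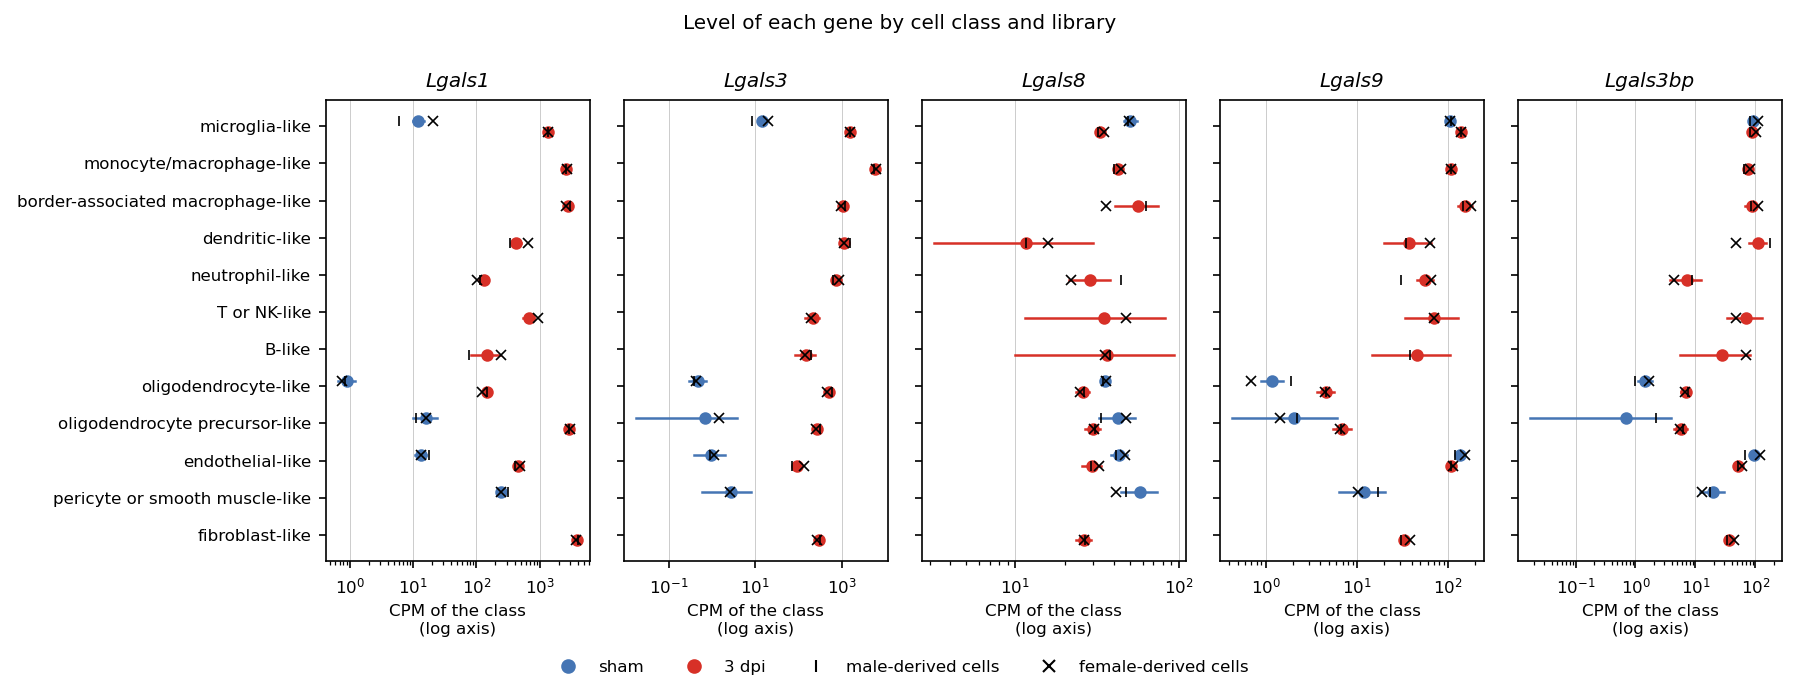
Level of the 5 genes (CPM of the class, log axis, with a scale of its own in each panel) in classes of at least 50 cells, sham in blue and 3 dpi in red, with 95% counting intervals as lines and the levels of male-derived and female-derived cells as ticks and crosses where these had at least 10 cells and a UMI. Lgals1 and Lgals3 at 3 dpi lie to the right of sham in all 4 classes seen in both libraries, while Lgals8 stays between 11.7 and 57.7 CPM.

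Lgals1 was lowest among the sham classes in oligodendrocyte-like cells, at 0.91 CPM [0.65 to 1.24]. Microglia-like cells (12.2 CPM), endothelial-like cells (13.4 CPM) and precursor-like cells (15.9 CPM) followed, with overlapping intervals. Among sham classes of at least 50 cells, pericyte or smooth muscle-like cells stood apart at 249 CPM [220 to 280], with 310 CPM in male-derived and 247 CPM in female-derived cells. Some smaller sham classes, too few for a comparison, were higher. The 19 fibroblast-like cells had 664 CPM from 62 UMIs, and the 48 border-associated macrophage-like cells 603 CPM from 102 UMIs. T or NK-like cells (9) had 1693 CPM from 56 UMIs, and monocyte/macrophage-like cells (9) 415 CPM from 22 UMIs. The remaining small named classes held at most 6 UMIs each. Of the endothelial-like UMIs of Lgals1 in sham, 72.2% came from cluster 33, 134 cells that also carried pericyte markers, at 49.7 CPM, against 4.46 CPM in the 1410 cells of cluster 5.

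At 3 dpi the order of Lgals1 was different. Fibroblast-like cells were highest at 3865 CPM [3831 to 3899], then precursor-like cells at 2885 CPM [2854 to 2917]. Border-associated macrophage-like cells (2827 CPM [2712 to 2946]) overlapped the precursor-like interval, and the 2 classes changed places between male-derived and female-derived cells. Monocyte/macrophage-like cells had 2615 CPM, microglia-like cells 1353 CPM, T or NK-like cells 666 CPM and endothelial-like cells 454 CPM. Dendritic-like cells (425 CPM) overlapped the endothelial-like cells. B-like (145 CPM), oligodendrocyte-like (145 CPM) and neutrophil-like cells (133 CPM) closed the order with overlapping intervals. Lgals1 at 3 dpi was therefore spread over several lineages: macrophage-like cells held 34.4% of its UMIs, microglia-like cells 22.0%, fibroblast-like cells 21.7% and precursor-like cells 14.2%.

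The libraries were then compared within the 4 shared classes. A gene was measured at 20 CPM or more in 1 library and took a call, in either direction, from a ratio of 2-fold or more after 10 CPM was added to both, a rule of size and not a test. Lgals1 and Lgals3 were called higher at 3 dpi in all 4 classes, and no member was called lower in any. By the same rule, genes called higher made up 11.7% of 6202 in microglia-like cells, 5.37% of 6335 in oligodendrocyte-like cells, 7.35% of 8193 in precursor-like cells and 7.92% of 7120 in endothelial-like cells. Genes called lower made up 16.4%, 4.06%, 13.7% and 14.5%. With the libraries scaled by median of ratios instead, the genes called higher and lower numbered 937 and 804 in microglia-like cells (725 and 1018 by CPM), 881 and 625 in precursor-like cells (602 and 1126) and 876 and 588 in endothelial-like cells (564 and 1029). The members had been chosen with these contrasts known, so nothing is read from their count. In each class different clusters held most cells of the 2 libraries: cluster 0 in sham against 3 and 9 at 3 dpi for microglia-like cells, 2, 6 and 8 against 11, 12 and 15 for oligodendrocyte-like cells, 19 against 10 for precursor-like cells, and 5 against 17 for endothelial-like cells.

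In microglia-like cells Lgals1 was at 12.2 CPM in sham and 1353 CPM at 3 dpi, 111-fold [92.2 to 135]. Male-derived cells went from 5.93 to 1330 CPM and female-derived cells from 20.9 to 1366 CPM. In oligodendrocyte-like cells it was at 0.91 and 145 CPM, 159-fold [117 to 223], a 3 dpi level that is set beside free RNA below. In precursor-like cells, the dividing progenitors of the oligodendrocyte lineage, it was at 15.9 and 2885 CPM, 181-fold [121 to 286]. With 10 CPM added this was the largest log2 ratio of any member in the 4 classes (6.80), whereas with 1 CPM added Lgals3 in oligodendrocyte-like cells was larger (8.40 against 7.41). In endothelial-like cells it was at 13.4 and 454 CPM, 33.9-fold [27.7 to 42.0], where most sham UMIs came from cluster 33, which also carried pericyte markers. Ratios against a sham level this low rest on few UMIs (23 in sham precursor-like cells), while the 3 dpi levels rest on 2695 to 49774 UMIs.

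Part of the low sham level itself came from few cells. In sham microglia-like cells, 8 cells lay in cluster 3, which was otherwise of the 3 dpi library, and these held 51.8% of the Lgals1 and 66.1% of the Lgals3 UMIs of the class. With the cells of the minor library of each cluster left out, an alternative added after the data were seen, the ratios in microglia-like cells became 229-fold for Lgals1 and 327-fold for Lgals3. Whether these 8 cells were in the sham tissue was not tested.

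Lgals3 was below 15 CPM in every sham class described. Microglia-like cells were highest at 14.1 CPM [11.7 to 16.7], pericyte or smooth muscle-like cells had 2.79 CPM, and endothelial-like, precursor-like and oligodendrocyte-like cells had 0.96, 0.69 and 0.48 CPM with overlapping intervals. The 9 sham monocyte/macrophage-like cells, too few for a comparison, had 2393 CPM from 127 UMIs, and the 15 sham neutrophil-like cells had 981 CPM from 40 UMIs.

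At 3 dpi monocyte/macrophage-like cells had 5798 CPM of Lgals3 [5771 to 5826], with 5551 CPM in male-derived and 5975 CPM in female-derived cells. They held 67.2% of its UMIs in the library, and microglia-like cells, at 1569 CPM [1556 to 1582], held 22.5%. Dendritic-like (1087 CPM) and border-associated macrophage-like cells (1064 CPM) followed with overlapping intervals, then neutrophil-like cells (739 CPM) and oligodendrocyte-like cells (499 CPM [489 to 509]). Fibroblast-like (295 CPM) and precursor-like cells (268 CPM), the leading classes for Lgals1, came next, and T or NK-like cells (210 CPM), B-like cells (145 CPM) and endothelial-like cells (93.5 CPM) were lowest. The precursor-like, T or NK-like, B-like and endothelial-like intervals each overlapped the next. The places behind the macrophage-like cells changed with the clustering. With the stricter cell filter, with doublets kept and at resolution 2.0, microglia-like cells had 1020, 761 and 1005 CPM of Lgals3, below dendritic-like cells (1040, 1015 and 1072 CPM). With the first 2 of these settings the cells named border-associated macrophage-like grew from 75 to 354 and 799. They took the 2nd place, at 2911 and 2700 CPM of Lgals3. With the stricter filter 283 of the 354 cells lay in 1 cluster with Hmox1 and Spp1 leading. Its mean log2 marker fold was 1.57 for border-associated macrophage and 1.37 for microglia. A cluster of 316 cells led by the same genes took no name at resolution 2.0 (1.55 against 1.52).

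Against sham, Lgals3 in microglia-like cells was 112-fold higher [93.8 to 134]. In oligodendrocyte-like cells it was at 0.48 CPM (21 UMIs) and 499 CPM (9288 UMIs), 1045-fold [683 to 1689]. In precursor-like cells 1 UMI in sham stood against 2993 at 3 dpi, a ratio of 388 with a counting interval of 69.5 to 15312. In endothelial-like cells it was at 0.96 and 93.5 CPM, 96.9-fold [46.8 to 242]. On the log2 scale with 10 CPM added these were differences of 6.04, 5.60, 4.70 and 3.24.

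**Figure D2:**
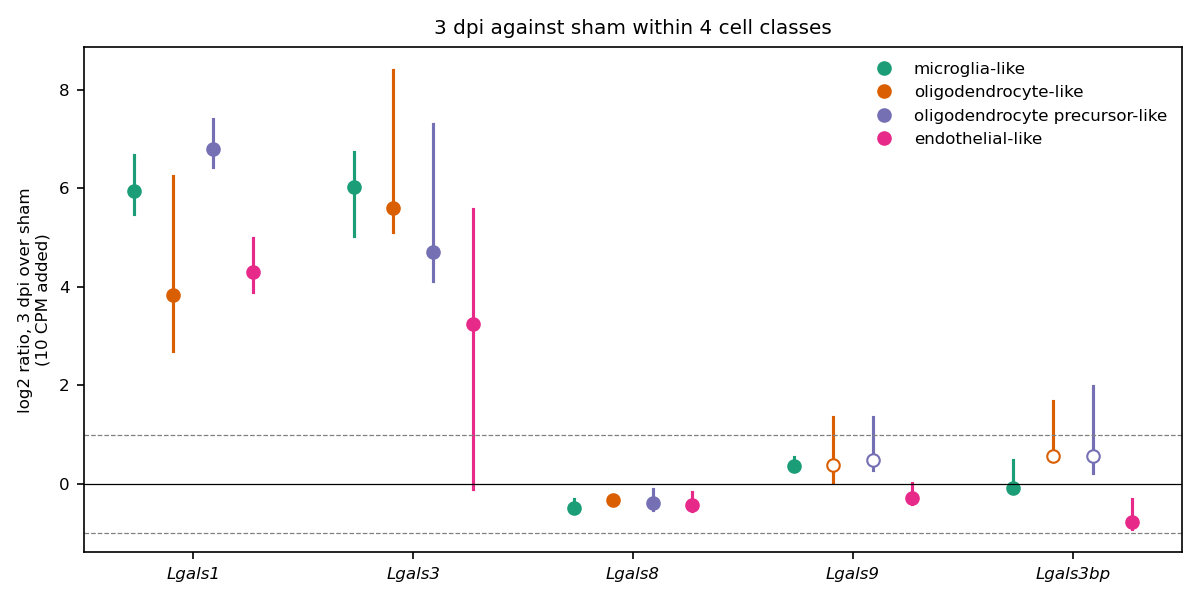
Log2 ratio of 3 dpi over sham with 10 CPM added (vertical axis) for the 5 genes (horizontal axis) in 4 classes; filled points were measured at 20 CPM or more, open points were not, lines span the lowest and highest value over 13 alternatives of processing and the point itself, and dashed lines mark a 2-fold ratio. Lgals1 and Lgals3 lie above the upper dashed line everywhere except Lgals3 in endothelial-like cells with free RNA subtracted (-0.10), and filled points of the other genes lie between the dashed lines.

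Name and purity of the phagocyte classes bear on these values. The 9 microglia markers, among them P2ry12 and Tmem119, summed to 20043 CPM in sham and 3825 CPM in 3 dpi microglia-like cells, and to 656 CPM in macrophage-like cells. The 10 monocyte/macrophage markers summed to 10.8 CPM in sham microglia-like, 1673 CPM in 3 dpi microglia-like and 6900 CPM in macrophage-like cells. Of these, the matrix gene Fn1 alone gave 1336 CPM in 3 dpi microglia-like cells. None of either list was at 0 in the 3 dpi phagocytes, and the part of mixed or misplaced cells in the level of Lgals3 in microglia-like cells was not tested.

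RNA set free from broken cells is taken up with every cell of a droplet library, so levels outside the phagocytes were read beside 9 genes of phagocytes (Lyz2, Tyrobp, Fcer1g, Laptm5, Ctss, Spi1, Cd68, Aif1 and Coro1a). In 3 dpi endothelial-like cells these stood at 1.42% to 5.98% of their macrophage level, with a median of 2.62%, and Lgals3 stood at 1.61%, below that median. After subtraction of 5% of UMIs as free RNA its level there was 0 CPM and its log2 ratio -0.10. That outcome depends on the 5%, which was assumed and not measured. How much of the Lgals3 of endothelial-like cells was free RNA was therefore not tested. Precursor-like cells had 1.25% to 5.80% for the 9 genes and 4.62% for Lgals3, above all of them but Coro1a (5.80%), and after the same subtraction the log2 ratio was 4.11. How much of the Lgals3 of precursor-like cells was free RNA was not tested. When every cell was thinned to 1000 UMIs, 7.20% of endothelial-like and 14.0% of precursor-like cells held a UMI of Lgals3 (49.5% and 61.9% unthinned). B-like cells, taken here as a class with little Lgals3 of its own, which was not tested, had a UMI in 13.2% of thinned cells [5.48 to 25.3] (18.6% unthinned, median 1066 UMIs against 13886.5 in endothelial-like and 11776 in precursor-like cells). Lgals1, in contrast, was at 17.3% of its macrophage level in endothelial-like, 110% in precursor-like and 148% in fibroblast-like cells, above all 9 phagocyte genes in each.

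Oligodendrocyte-like cells differed from both. Lgals3 stood at 8.60% of its macrophage level there, above all 9 phagocyte genes (1.19% to 3.78%), and it was unevenly spread over their 3 clusters at 3 dpi. Cluster 11 (690 cells, led by Serpina3n and Trf) had 148 CPM, 2.55% of the macrophage level and inside the range of the phagocyte genes (1.24% to 3.50%). Cluster 12 (617 cells) had 422 CPM, or 7.28% against 1.16% to 3.51%. Cluster 15 (440 cells, with Klk6 and Gpd1 among its leading genes) had 1261 CPM, or 21.7% against 1.16% to 5.21%. The phagocyte genes had medians of 2.10%, 2.13% and 2.22% in the 3 clusters, and the highest of them, Aif1, stood at 3.50%, 3.51% and 5.21%. Spp1 was at 934, 887 and 910 CPM. How much of the Lgals3 of oligodendrocyte-like cells was free RNA was not tested. Lgals1 was at 93.4 and 100.3 CPM in clusters 11 and 12 and at 322 CPM in cluster 15. These were 3.57%, 3.84% and 12.3% of its macrophage level, beside at most 3.50%, 3.51% and 5.21% for the phagocyte genes. After subtraction of 5% of UMIs as free RNA, oligodendrocyte-like cells at 3 dpi had 55.4 CPM of Lgals1, a log2 ratio of 2.69 against sham. How much of the Lgals1 of these cells was free RNA was not tested. All 8 oligodendrocyte markers, among them Mog and Mag, passed the naming rule in cluster 15.

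**Figure D3:**
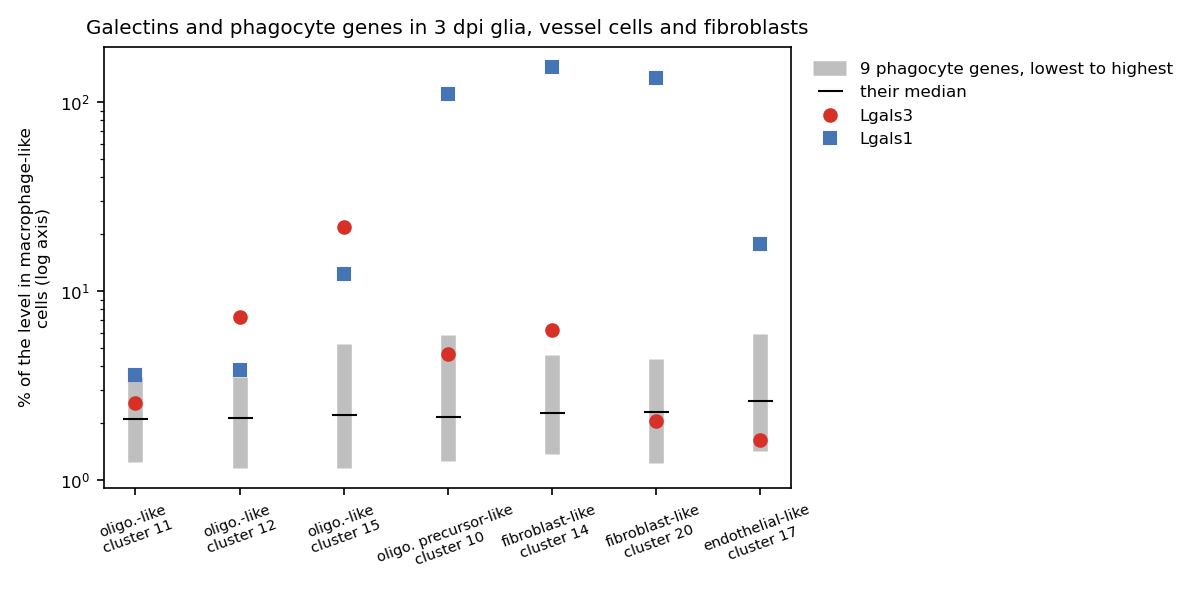
Lgals3 (red circles) and Lgals1 (blue squares) at 3 dpi as a percentage of the level in monocyte/macrophage-like cells (log axis) in clusters of glia, fibroblast-like and endothelial-like cells, with grey bars from the lowest to the highest of 9 phagocyte genes and black dashes at their median. Lgals3 lies above the bar in oligodendrocyte-like clusters 12 and 15 and fibroblast-like cluster 14, and inside it in the other 4; Lgals1 lies above the bar in all 7.

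Fibroblast-like cells also differed between clusters. Cluster 14 (448 cells, led by Mgp and Col1a2) had 362 CPM of Lgals3, 6.25% of the macrophage level against at most 4.58% for the phagocyte genes, and cluster 20 (236 cells, led by Dcn) had 119 CPM, or 2.05%, inside their range. Lgals1 was at 3998 and 3514 CPM in the same clusters.

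Among monocyte/macrophage-like cells, Lgals3 was at 5904 CPM in cluster 1 (1924 cells, led by Lyz2, Pf4 and Arg1, with Gpnmb and Spp1) and 6235 CPM in cluster 7 (1378 cells, with Chil3 and Ccl6). Cluster 29 (118 cells, led by the antigen-presentation genes Cd74 and H2-Aa) had 3839 CPM and cluster 21 (75 cells) 3185 CPM. Lgals1 ran from 1533 CPM in cluster 29 to 2850 CPM in cluster 1. Microglia-like cluster 3 had 1826 CPM of Lgals3 and 1415 CPM of Lgals1, and cluster 9 had 1206 and 1267 CPM. Clusters that took no name include 86 cells led by the neutrophil granule genes Elane and Prtn3, at 3275 CPM of Lgals3. Another had 99 cells led by haemoglobin genes, at 4432 CPM of Lgals1, the highest Lgals1 level of any cluster of at least 50 cells. These 99 cells were shallow, with a median of 1058 UMIs. Their leading genes also held Mt3, Gap43, Fabp7 and Rtn1, which precursor-like cluster 10 shared, and oligodendrocyte precursor markers stood 2nd highest in them.

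**Figure D4:**
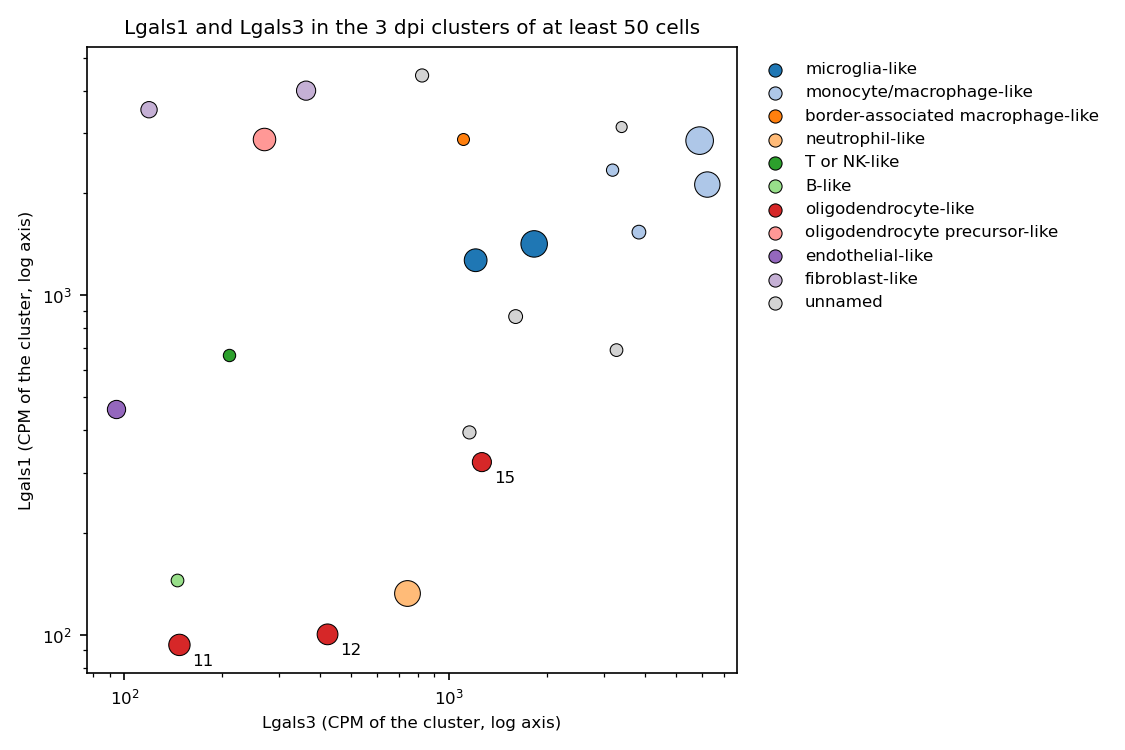
Lgals3 (horizontal) against Lgals1 (vertical), both in CPM on log axes, in each 3 dpi cluster of at least 50 cells, with colour for the class and point area growing with the number of cells. Macrophage-like clusters lie at the right with 3185 to 6235 CPM of Lgals3, fibroblast-like and precursor-like clusters at the upper left, and the oligodendrocyte-like clusters, marked by number, run from 148 to 1261 CPM of Lgals3 with at most 322 CPM of Lgals1.

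Counts of both genes in the same cell followed these levels. With every 3 dpi cell thinned to 1000 UMIs, 81.0% of monocyte/macrophage-like cells held UMIs of both Lgals1 and Lgals3, and 1.29% held neither. In microglia-like cells 36.5% held both, 61.9% held Lgals1 and 51.6% held Lgals3. In fibroblast-like cells 94.3% held Lgals1 and 25.3% held Lgals3, and in neutrophil-like cells 11.3% and 40.1%, although 670 of the 1459 neutrophil-like cells were too shallow for thinning. Unthinned, Lgals1 was seen in 97.8% of macrophage-like, 95.4% of microglia-like, 99.4% of fibroblast-like and 13.6% of neutrophil-like cells, and Lgals3 in 99.7%, 89.8%, 84.4% and 41.7%.

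Cells were also split by UMIs of 6 genes of dividing cells, such as Mki67 and Top2a. From cells with 0 such UMIs to cells with 3 or more, Lgals3 went from 2164 to 1369 CPM in microglia-like and from 6081 to 3686 CPM in macrophage-like cells. Fibroblast-like cells went from 487 to 228 CPM. In precursor-like cells Lgals3 was higher instead, from 198 to 285 CPM. Lgals1 went up in precursor-like cells (1949 to 3110 CPM) and fibroblast-like cells (3107 to 4157 CPM), and was near level in microglia-like cells (1275 and 1373 CPM). Cells with more such UMIs were also deeper (medians of 9782.5 and 15626 UMIs in microglia-like cells), and the part of depth in these differences was not tested.

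Lgals8 was at 35.2 to 57.7 CPM over the 5 sham classes and 11.7 to 55.9 CPM over the 11 classes at 3 dpi, and in each library every class overlapped the next in order. This overlap does not make all classes alike. At 3 dpi macrophage-like cells had 42.3 CPM (1259 UMIs) and oligodendrocyte-like cells 25.8 CPM (481 UMIs). The lowest level, in dendritic-like cells, rests on 4 UMIs. In microglia-like cells Lgals8 was at 50.6 CPM in sham and 33.1 CPM at 3 dpi, 1.53-fold lower [1.37 to 1.70]. Oligodendrocyte-like cells had 35.2 and 25.8 CPM, precursor-like cells 42.2 and 29.7 CPM, and endothelial-like cells 43.1 and 29.3 CPM. All 4 log2 ratios lay between -0.49 and -0.33, beside a median over all genes of -0.15 in microglia-like, -0.02 in oligodendrocyte-like, -0.26 in precursor-like and -0.28 in endothelial-like cells.

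Lgals9 was highest in endothelial-like (136 CPM [128 to 145]) and microglia-like cells (106 CPM [99.1 to 113]) of sham, and was at 12.1 CPM in pericyte or smooth muscle-like, 2.08 CPM in precursor-like and 1.18 CPM in oligodendrocyte-like cells. At 3 dpi border-associated macrophage-like (154 CPM), microglia-like (139 CPM), monocyte/macrophage-like (109 CPM) and endothelial-like cells (109 CPM) led, and precursor-like and oligodendrocyte-like cells had 6.90 and 4.56 CPM. Between the libraries it was 1.32-fold higher [1.23 to 1.41] in microglia-like cells and 1.25-fold lower [1.14 to 1.37] in endothelial-like cells, both short of the 2-fold rule; with median-of-ratios scaling the endothelial-like log2 ratio of -0.30 became 0.03.

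In sham Lgals3bp was highest in the same classes as Lgals9. Sham endothelial-like (95.5 CPM) and microglia-like cells (92.5 CPM) overlapped, pericyte or smooth muscle-like cells had 19.6 CPM, and the oligodendrocyte lineage at most 1.45 CPM. At 3 dpi dendritic-like (111 CPM), microglia-like (87.4 CPM), border-associated macrophage-like (87.0 CPM), macrophage-like (74.5 CPM) and T or NK-like cells (70.1 CPM) overlapped in order. The leading dendritic-like cells had 37.9 CPM of Lgals9, 8th of 11 classes. In contrast to Lgals9, neutrophil-like cells were near the bottom, with 7.18 CPM [3.71 to 12.5] against 56.8 CPM of Lgals9. In endothelial-like cells Lgals3bp was at 95.5 and 51.9 CPM, 1.84-fold lower [1.62 to 2.09], a log2 ratio of -0.77, with 22.7% of genes below it. Male-derived endothelial-like cells had 65.7 and 51.2 CPM and female-derived cells 121 and 59.0 CPM. Neither Lgals9 nor Lgals3bp was measured at 20 CPM in the oligodendrocyte lineage.

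Across the 16 class profiles of at least 50 cells, 5 of sham and 11 of 3 dpi, the genes most like each member by Pearson correlation of log levels were named. These correlations describe profiles that share libraries and free RNA. For Lgals9 they were Bst2 (0.95), which encodes the interferon-induced membrane protein tetherin, Rap1b (0.93), the death-pathway protease Casp8 (0.93), Il10rb (0.91) and Tgfb1 (0.89). For Lgals3bp they were Bst2 (0.93), Casp8 (0.87), Tgfb1 (0.87), Lgals9 itself (0.86) and the immunoproteasome gene Psmb9 (0.83). For Lgals3 they were Spp1 (0.94), the secreted protein osteopontin, the lysozyme gene Lyz2 (0.91), Wfdc17 (0.88), Prelid1 (0.87) and Pfn1 (0.87). For Lgals1 they were Eif5a (0.91), Sec61g (0.88), Sec61b (0.87), Emp3 (0.87) and Ubl4a (0.86). For Lgals8 the highest was Thoc2, at 0.68. Lgals1 and Lgals3 correlated at 0.76.

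Since Lgals9 and Lgals3bp shared their highest sham classes and 3 of their 5 nearest genes, the 250 bases before the RefSeq start of each (GRCm38.p6) were searched for a motif of interferon response, read on the strand of the gene. The table held 4 of the 5 members, without Lgals1. Capitals mark matches, on either strand, to AANNGAAAC, the core of the element that interferon regulatory factors bind, or to the related repeat of GAAA, any 2 bases and GAAA, which can overlap it. Of Lgals9, on the minus strand, 228 bases are shown, chr11:78984947-78985174. The last 22 bases of its window are left out, because a GENCODE M21 transcript of the gene holds them together with the bases after the start. A transcript spliced within those later bases would not be found by this comparison. Of Lgals3bp, also on the minus strand, the 30 bases next to the start are shown, chr11:118401960-118401989, because the last 133 bases of its window also lie in a GENCODE M21 transcript that starts farther upstream.
Lgals9: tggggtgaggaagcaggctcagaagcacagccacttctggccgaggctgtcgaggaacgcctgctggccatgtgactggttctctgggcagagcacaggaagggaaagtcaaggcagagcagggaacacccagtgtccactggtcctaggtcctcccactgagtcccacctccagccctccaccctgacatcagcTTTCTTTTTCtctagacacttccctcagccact
Lgals3bp: tcatgtgttttctgaaAATCGAAACtaggt
Lgals3bp held 1 match to AANNGAAAC, 14 bases before the RefSeq start and inside that longer transcript, and Lgals9 held 1 match to the reverse complement of the repeat, 55 bases before the RefSeq start, within a stretch of pyrimidines. Of 32851 windows of 250 bases, 4.95% held the 1st motif and 2.98% the 2nd. Of the genes nearest to Lgals9 and Lgals3bp, Rap1b and Il10rb were not searched. Among those searched besides the members, Bst2 matched both and Casp8 the 1st, while Tgfb1 and Psmb9 matched neither. Spp1, the gene nearest to Lgals3, matched both in 1 of its 2 listed windows, and Lyz2, Lgals3 and Lgals8 matched neither. A match describes letters and not a bound site.

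Genes of interferon response were listed for the same reason, 11 in all. In endothelial-like cells, 0 of 10 measured were called higher and 8 lower (median log2 ratio -1.49 beside -0.28 over all genes). Of all genes there, 7.92% were higher and 14.5% lower. The antiviral gene Ifit1 went from 195 to 29.6 CPM, the transcription factor gene Irf7 from 162 to 28.3 CPM, Ifit3 from 130 to 28.7 CPM and Rsad2 from 126 to 28.9 CPM. Lgals3bp and Lgals9 had log2 ratios of -0.77 and -0.30 in endothelial-like cells, within 2-fold, with 22.7% and 48.9% of genes below them. With median-of-ratios scaling Lgals9 was level there (0.03). In microglia-like cells 2 of 4 measured were higher, Ifi27l2a (43.8 and 186 CPM) and Ifitm3 (37.9 and 177 CPM), and none lower (median 1.30 beside -0.15). Of all genes there, 11.7% were higher. Lgals9 and Lgals3bp had log2 ratios of 0.37 and -0.07 in microglia-like cells, the sign of Lgals3bp holding in 7 of 13 alternatives. Whether either member follows the interferon-response genes was not tested. Precursor-like cells had 2 of 4 higher (median 0.72 beside -0.26) and oligodendrocyte-like cells 1 of 3 (median 0.84 beside -0.02), with none lower. Of all genes, 7.35% were higher in precursor-like and 5.37% in oligodendrocyte-like cells.

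Of the 19 listed glycoproteins that galectins bind, 16 were measured in microglia-like cells, 5 called higher and 1 lower (median log2 ratio 0.07 beside -0.15 over all genes). Of all genes in microglia-like cells, 11.7% were higher and 16.4% lower. Fn1, the matrix protein fibronectin, went from 3.21 to 1336 CPM (416-fold [290 to 621]), and P4hb, a protein disulphide isomerase, from 147 to 371 CPM. Mertk, a receptor for uptake of dying cells, went from 288 to 62.1 CPM. In endothelial-like cells 2 of 12 were higher and 5 lower (median -0.27 beside -0.28), and with median-of-ratios scaling 4 of 13 were higher and 4 lower. Of all genes in endothelial-like cells, 7.92% were higher and 14.5% lower by CPM. There Bsg (basigin) went from 17612 to 3037 CPM, Nrp1, a co-receptor of vascular growth factor, from 357 to 73.1 CPM and Slc3a2 from 744 to 258 CPM, while the integrin gene Itga5 went from 12.95 to 127 CPM. In precursor-like cells 4 of 11 were higher and none lower (median 0.54 beside -0.26), where 7.35% of all genes were higher and 13.7% lower. The hyaluronan receptor gene Cd44 was at 0 UMIs in sham and 189 CPM at 3 dpi, at least 91.1-fold higher against a floor of 3 UMIs over the class, the integrin gene Itgb1 went from 156 to 341 CPM and P4hb from 70.6 to 155 CPM. In oligodendrocyte-like cells 4 of 9 were higher and none lower (median 0.58 beside -0.02), with P4hb at 122 and 276 CPM. Of all genes in oligodendrocyte-like cells, 5.37% were higher and 4.06% lower. There the fold of Fn1 and Trem2, at 40.2 and 28.5 CPM at 3 dpi, is of genes that phagocytes express, and the part of free RNA in it was not tested.

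The list of enzymes that build galectin ligands on N-glycans and O-glycans had 13 genes. In microglia-like cells 1 of 9 was higher and 2 lower, where 11.7% of all genes were higher and 16.4% lower, counts near those shares. The 2 lower were Mgat1, which starts the branching of N-glycans (122 and 42.4 CPM), and Mgat4a (146 and 58.6 CPM). The median log2 ratio of the 9 was 0.07, beside -0.15 over all genes. In endothelial-like cells 2 of 9 were higher and none lower (median 0.25 beside -0.28), where 7.92% of all genes were higher. In precursor-like cells none of 7 was higher and 1 lower (median -0.18 beside -0.26), where 13.7% of all genes were lower, a count near that share. In oligodendrocyte-like cells 0 of 6 took a call (median -0.05 beside -0.02). The 9 listed genes of damaged-lysosome recognition and autophagy include the autophagy receptor genes Sqstm1 and Tax1bp1. Beside shares of all genes of 4.06% to 16.4% per direction, they gave 0 calls in any of the 4 classes among 6 or 7 measured. Their medians were -0.32 in microglia-like, -0.05 in oligodendrocyte-like, -0.42 in precursor-like and -0.64 in endothelial-like cells, and Calcoco2 was at 0 UMIs in every class described. Of 7 other galectin family genes, 5 were in the tables. Lgalsl, a galectin-like protein gene, was at 113 CPM in sham and 41.7 CPM in 3 dpi precursor-like cells, 2.72-fold lower [2.26 to 3.25], a call lost with median-of-ratios scaling. Lgals2, Lgals4, Lgals7 and Grifin reached at most 16.1 CPM in any class of at least 50 cells.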

How the data were processed

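Single cells of pooled mouse spinal cord were counted in 1 sham and 1 3 dpi library. The deposited tables hold raw counts of UMIs per gene and barcode, from 10X 3′ v.3 libraries per the labels' protocols. Per the submitters' processing notes, Cell Ranger and Seurat were used, and the build named there is the human GRCh38, although the symbols are of mouse (22164 of 22480 are in GENCODE M21), and the sources used here give no versions. The tables hold 0 mitochondrial genes, so RNA quality was not read from them.

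Total counts were 76889038 UMIs in 10138 sham barcodes and 149291783 in 13594 3 dpi barcodes. Cells needed 200 genes and 500 UMIs. Doublets were scored against 2 simulated doublets per cell, and 0.8% per 1000 cells were removed (820 sham, 8.10%; 1476 3 dpi, 10.9%); of the simulated doublets, 65.2% and 75.9% scored past the threshold. Each cell was scaled to 10000 and logged. The 2000 most variable genes per library, without the members and most list genes, gave 30 principal components, and Leiden clustering used 15 neighbours at resolution 1.0 without batch integration. A cluster took the class whose markers stood highest (mean log2 fold against the median cluster), with at least 3 markers 2-fold higher and in 10% of cells; tied or unnamed clusters of 100 cells or more were clustered once more. Ties between the 2 macrophage classes kept the higher one. These naming rules were set after the data were seen.

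UMIs were summed per class and library as CPM. Intervals are 95% exact Poisson (levels), Clopper-Pearson (shares) and exact conditional (ratios); they leave out the spread between cells, mice and libraries. Classes of at least 50 cells were described. Ratios of all genes took 10 CPM added, and calls a 2-fold ratio at 20 CPM or more. The calls were also run per class on simulated data with 200 changed genes. The outcome of that run is not given here, and no result rests on it. Named genes were the members, at most 4 per list and class past 2-fold at 100 CPM or more, and the 5 genes most like each member among those reaching 100 CPM; genes of small counts and of the naming steps were named after their values were seen. Male-derived cells had a Y-linked and no Xist UMI, female-derived cells the reverse. The members and lists were chosen with earlier results of these data known. Alternatives changed the cell filter, doublets, resolution, clustering genes, scaling, added CPM, weighting of cells, free RNA (5% subtracted), sex of the cells, depth (1000 UMIs) and the filter on low genes. Clusters came from leidenalg 0.10.2 with igraph 0.11.9 and scikit-learn 1.9.0, intervals from scipy 1.17.1 and figures from matplotlib 3.10.9, under Python 3.11.15 with pandas 2.3.3 and numpy 2.4.6.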

Additional observations from a re-analysis of the deposited data

How the results depend on the processing

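Each ratio of 3 dpi over sham was computed under 13 alternatives. Lgals1 kept its sign and its 2-fold call in all 13 in each of the 4 classes, and so did Lgals3 in microglia-like, oligodendrocyte-like and precursor-like cells. In endothelial-like cells Lgals3 kept them in 12, and after subtraction of free RNA (5% of UMIs) its log2 ratio was -0.10, which left 1 member called higher. Lgals8, Lgals9 and Lgals3bp gained no call in any; the sign of Lgals3bp in microglia-like cells held in 7 of 13, and that of Lgals9 in endothelial-like cells turned with median-of-ratios scaling (0.03). By that scaling the typical gene lay at a log2 ratio of -0.35 in endothelial-like, -0.19 in microglia-like, -0.33 in precursor-like and -0.03 in oligodendrocyte-like cells on the CPM scale. With it, 876 genes were higher and 588 lower in endothelial-like cells (564 and 1029 with CPM), and 625 were lower in precursor-like cells (1126 with CPM). With 1 CPM added, 1750 genes were lower in precursor-like and 406 in oligodendrocyte-like cells (257 with 10 CPM); the cause was not tested. At 3 dpi fibroblast-like cells stayed highest for Lgals1 and macrophage-like cells for Lgals3 in each setting that clustered anew, but the classes behind them changed places. With the stricter cell filter and with doublets kept, the cells named border-associated macrophage-like numbered 354 and 799. They had 1967 and 1832 CPM of Lgals1 (2827 CPM as reported, in 75 cells). In the same settings the highest class became microglia-like for Lgals9 and macrophage-like for Lgals8. No paired analysis was possible because each group is 1 library.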
